A study of Rattus norvegicus with 2 samples.

Results

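The annotation of transcripts assembled from rat femur RNA-seq contains 2042 transcript models that lie inside introns of reference genes, which is 4.71% of its 43391 models. They were selected by the class code i, the code for a model that falls within a reference intron, on all 21 sequences of the annotation. The animals were female Wistar rats of the genotype WT, operated under pentobarbital sodium, in which both ovaries were removed (bilateral ovariectomy, OVX) or left in place (SHAM). The labels used here give 1 OVX sample and 1 SHAM sample of femur tissue, both marked 16 week, with the word old in the description of the OVX sample and the word young in that of the SHAM sample. The growth and treatment protocols are the same for both, and the study's methods describe more sequenced rats than these labels cover and a DNase I treatment of the RNA. The deposited files give positions and attributes only, with no count, level or coverage in any line, so that depth is unknown, no value belongs to either group, and OVX was not compared with SHAM.

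An intron is transcribed together with its gene and is then removed by splicing. RNA assembled from inside an intron can stem from unspliced or excised host RNA, from an independent non-coding RNA or from an exon that the reference lacks. The orientation, the gaps between exons and the recurrence of a model describe such RNA without telling these sources apart, and the source of these models was not tested.

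None of the 2042 intronic models carried a gene name of its own, and 0 of them belonged to the 1507 genes on the deposited list of new genes. All positions are given as in the annotation, whose sequences bear database names. The submitters' notes name the build rn4, and whether the positions refer to it was not checked. The intronic models formed 2008 loci of the annotation and lay in 1413 named host genes. Of the models, 1875 had a host gene with assembled models of its own, and 1614 fell within the assembled span of that host. Intronic models made up 2.94% to 8.26% of the models per chromosome, with a median of 4.68%. The highest share was on chromosome 17 (98 of 1187) and the lowest on chromosome 19 (36 of 1223).

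The intronic models were short. Their exon sequence had a median of 266 bp (quartiles 233 and 331 bp, range 200 to 3082 bp), so that most stood close to the shortest length seen. Models between reference genes (class code u), which also share no exon with a known gene and serve here for comparison, had a median of 319 bp (quartiles 251 and 476 bp, n = 1616). A short length was not particular to intronic models. The median was 281 bp for 173 models with class code r and 296 bp each for codes y and s. All models outside class i together had a median of 565 bp. From 200 to 299 bp were 1350 intronic models (66.1%) against 738 (45.7%) between genes, and 23 intronic models (1.13%) reached 1000 bp against 108 (6.68%).

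**Figure D1:**
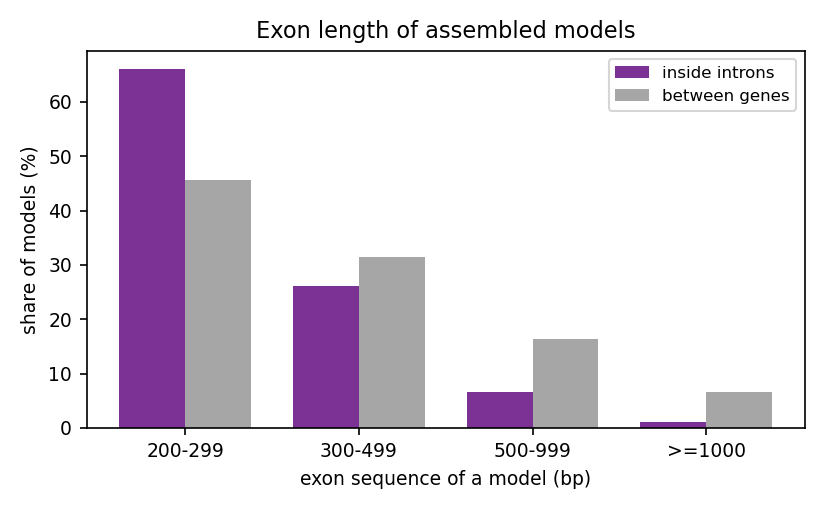
Share of models (%, y axis) by the length of their exon sequence (bp, x axis) for models inside introns (n = 2042) and between genes (n = 1616). The intronic models are concentrated in the lowest bin, with 66.1% at 200 to 299 bp.

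A single exon was present in 1197 intronic models (58.6%, 95% Wilson interval 56.5% to 60.7%), 2 exons in 794, 3 exons in 44 and 4 to 6 exons in 7. The single-exon share was 6.49% over all other classes together. It was 74.7% of 691 antisense models over known exons, 51.4% of 173 models with class code r and 100% for codes p and e. Single-exon models made up 45.7% of the models between genes (738 of 1616). The intronic and intergenic shares differed by 13 percentage points (Fisher's exact test on counts of models, two-sided p = 7.19e-15). Among models with at least 500 bp of exon the order was turned, with 47.8% of 159 intronic and 53.1% of 371 intergenic models (Fisher's exact p = 0.297). Models are not replicates of a condition, so this test and those below describe the annotation, not the rats.

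Models with 2 or more exons are called spliced here, but no splice site was checked, so a gap need not be a removed intron. Those inside introns differed from known transcripts in the gaps between their exons. The 845 models with 2 or more exons had 910 gaps with a median of 110 bp (quartiles 30 and 447 bp, range 20 to 52558 bp). Gaps of 20 to 29 bp alone accounted for 218 of them (24%), and 329 gaps (36.2%) were below 50 bp. In the 878 spliced models between genes the median gap was 958 bp, and 58 of 1633 gaps (3.55%) were below 50 bp. Models that match or are contained in a reference transcript had 97842 gaps with a median of 1130 bp and a minimum of 50 bp. Their gaps are introns of the reference by definition, which sets this minimum. At the other end, 155 intronic gaps (17%) reached 1000 bp, against 805 (49.3%) between genes and 52300 (53.5%) in reference models.

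The limit of 50 bp was chosen after these lengths had been seen, and the gap shares were therefore not tested. Of the 845 spliced models, 328 had a gap below 50 bp, and 323 of these consisted of 2 exons. They spanned a median of 299 bp of genome with 270 bp of exon. The other 517 spanned a median of 595 bp, and 119 of them had only gaps of 1000 bp or more, with a median span of 4584 bp. With gaps below 50 bp closed, 1521 intronic models (74.5%) would consist of a single exon.

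**Figure D2:**
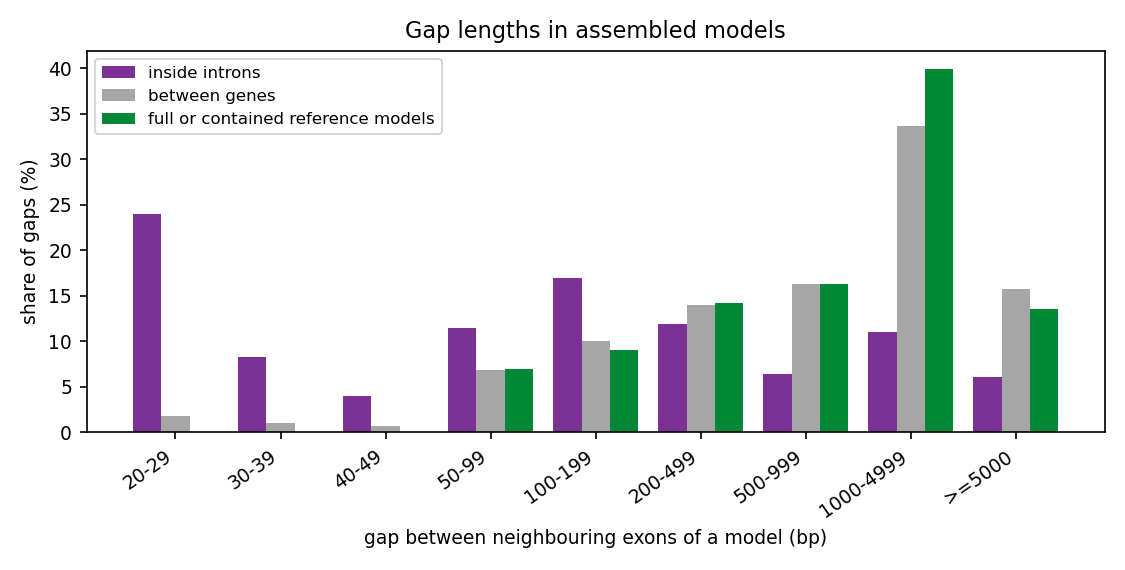
Share of gaps (%, y axis) by gap length (bp, x axis, bins of unequal width) for spliced models inside introns (910 gaps), between genes (1633 gaps) and matching or contained in reference transcripts (97842 gaps). The intronic models have 24% of their gaps at 20 to 29 bp, where the reference models have none.

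Galnt10, which encodes an enzyme that starts O-linked glycosylation, held 7 intronic models, 5 of them with a gap below 50 bp (named here after their values were seen, apart from the recurrent one). Each had 2 exons, and the 7 gaps ranged from 21 to 96 bp with a median of 28 bp. Of the 7 models, 5 lay in the first intron of 74603 bp and the other two in intron 4 of 31459 bp. A model of 367 bp on the minus strand (chromosome 10, 41148621 to 41149008, gap of 21 bp) overlapped one of 368 bp on the plus strand (41148800 to 41149196, gap of 29 bp), and the former came from the first assembly and the latter from the second. The recurrent model of 927 bp lay opposite to the gene (41122402 to 41123351, gap of 23 bp).

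Each model is marked as present in 1 assembly or in 2. Whether a model came from the first or the second was inferred from the order of strands in the model numbers, not read from a label. The files do not tie either assembly to OVX or SHAM or to a rat, so the values below compare 2 assemblies of unknown make-up, with no replicate and no test. Intronic models were found 654 times in the first assembly alone and 1363 times in the second alone, a ratio of 2.08. All other models together gave 18660 and 17818 (ratio 0.955). The excess in the second assembly was present on 21 of 21 sequences, with ratios from 1.5 to 2.8, while the ratio for all models ranged from 0.882 to 1.08 across the same sequences.

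Single-exon models carried most of this difference. There were 279 single-exon intronic models in the first and 902 in the second assembly (ratio 3.23), and 375 and 461 spliced ones (ratio 1.23). Single-exon models between genes were nearly balanced (336 and 356), and single-exon antisense models over known exons went the other way (299 and 198). Spliced models with a full reference chain also went the other way, with 1654 in the first and 988 in the second assembly (ratio 0.597). Spliced models with class code n had 125 and 159 (ratio 1.27), so a ratio near 1.23 was not particular to intronic ones. For spliced models of all other classes together it was 0.962. Of 5 length ranges of intronic models, the shortest had the largest imbalance, with 210 against 562 at 200 to 249 bp. It was 212 against 314 at 300 to 499 bp, and 15 against 8 from 1000 bp on. The depth of the assemblies is unknown, and its part in this difference was not tested.

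**Figure D3:**
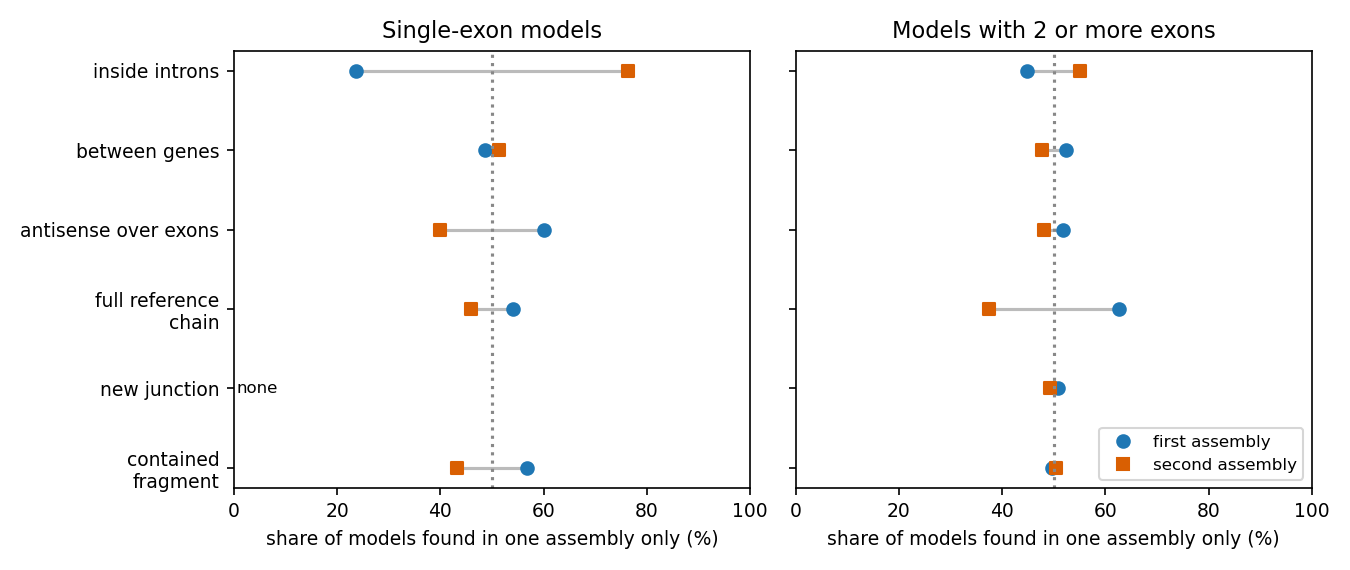
Share (%, x axis) of the models found in 1 assembly only that came from the first (circles) and the second assembly (squares), by class of model (y axis), for single-exon models (left) and models with 2 or more exons (right); the dotted line marks an equal share. Single-exon intronic models stand farthest from it, with 279 in the first and 902 in the second assembly.

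Only 25 intronic models (1.22%, Wilson interval 0.831% to 1.8%) were found in both assemblies, against 116 of 1616 models between genes (7.18%; Fisher's exact p = 2.98e-21). The difference was present within single-exon models (16 of 1197, 1.34%, against 46 of 738, 6.23%; Fisher's exact p = 5.72e-09) and within spliced models (9 of 845, 1.07%, against 70 of 878, 7.97%; Fisher's exact p = 7.2e-13). It was not detectable among models with at least 500 bp of exon, of which 8 of 159 (5.03%) intronic and 31 of 371 (8.36%) intergenic ones were shared (Fisher's exact p = 0.207). A low share was not particular to intronic models. It was 1.16% of 173 models with class code r, 1.05% of 190 with code p and 0 of 60 with code e. The remaining classes ranged from 2.5% to 50.2%. Of the 2017 intronic models found in 1 assembly, a further 51 (2.53%) overlapped an intronic model of the other assembly on the same strand, and 110 (5.45%) did so on either strand. The same overlap was not computed for models between genes. At the level of genes, 580 hosts had a model in the first assembly and 1056 in the second, and 223 had one in both, which is 38.4% of the former and 21.1% of the latter. Over all named genes with assembled models, 10.2% held an intronic model. That share went from 0.492% of genes spanning less than 1000 bp to 53.3% from 300000 bp on. The overlap of hosts was not adjusted for gene span.

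The recurrent models were longer than the others, with a median exon sequence of 354 bp (quartiles 248 and 557 bp). Lyn, a Src-family kinase of myeloid and B cells, held a recurrent model of 2 exons and 483 bp on the strand opposite to the gene (XLOC_005900, chromosome 5, 16111819 to 16112429). It lay in intron 10, of 25158 bp, and 1030 bp before the next exon. Ssbp3, a single-stranded DNA-binding protein that acts as a transcriptional co-regulator, held one of 652 bp on its own strand (XLOC_005566, chromosome 5, 120490316 to 120490990) with a gap of 23 bp, near the middle of intron 4 of 93591 bp. The host rCG_57161, known by its identifier alone, held one of 679 bp with a gap of 102 bp on its own strand (XLOC_012959, chromosome 14, 34333517 to 34334297). The recurrent model with the most exons had 3 exons and 293 bp in the host rCG_56805 (XLOC_000145, chromosome 1, 63411385 to 63417252), with gaps of 1489 and 4086 bp.

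The other 5 recurrent spliced models lay in Galnt10, LOC362587, rCG_40265, rCG_26002 and rCG_44304, with 236 to 927 bp of exon and gaps of 20 to 1029 bp. The span of the one in rCG_40265 overlapped an exon of a model of the host. Among all 9, 3 had a gap below 50 bp. The 16 recurrent single-exon models measured 202 to 801 bp. Their named hosts included Fchsd2, a regulator of membrane traffic (622 bp on the opposite strand), Snx5, a sorting nexin of endosomes (243 bp, opposite strand), Sdc2, a heparan sulfate proteoglycan of the cell surface (203 bp, opposite strand), and Tacc1, a coiled-coil protein of the centrosome (301 bp, own strand). These were named after their values had been seen.

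Intronic models were divided about evenly between the strand of their host and the opposite one. Among single-exon models with a host strand, 534 of 1085 were on the strand of the host (49.2%, Wilson interval 46.2% to 52.2%; exact binomial test against an even division, two-sided p = 0.627). Among spliced models the number was 403 of 790 (51%, 47.5% to 54.5%; exact binomial p = 0.594). Whether the libraries kept the strand of the RNA is not given in the sources used here, which limits what the strand of a single-exon model can say. Across assemblies, 60 pairs of overlapping intronic models were found, 29 on the same strand and 31 on opposite strands. For single-exon pairs the split was 9 and 23, and for spliced pairs 18 and 6. A model marked as present in both assemblies is 1 model on 1 strand and forms no such pair. There were 16 single-exon and 9 spliced models of this kind, so the pairs leave out same-strand matches already merged. An identical gap was shared by 5 spliced pairs, 2 of which carried opposite strands.

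This even division depends on how the host strand is read. When it was taken only from models of the reference transcript named for each intronic model, 516 of 951 single-exon models (54.3%; exact binomial p = 0.00945) and 393 of 714 spliced models (55%; exact binomial p = 0.00784) were on the strand of the host. The 210 models that this reading drops were 28 on the strand of the host and 182 opposite to it. The shares by gap that follow use the first reading of the host strand, which keeps these models, and are not given under the second. Among spliced models, 140 of 316 with a gap below 50 bp (44.3%, Wilson interval 38.9% to 49.8%) and 263 of 474 with larger gaps only (55.5%, 51% to 59.9%) were on the strand of the host. Of those with gaps of 1000 bp or more only, 63 of 99 were (63.6%, 53.8% to 72.4%). These groups were formed after the gap lengths had been seen and were not tested.

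Long genes held most of the intronic models. Of 12545 named genes with assembled models, 1275 (10.2%) held at least 1. Their assembled span had a median of 58461 bp (quartiles 26818 and 117607 bp), against 12248 bp for the 11270 genes without one. The share of genes with an intronic model rose with each step of span, from 4 of 813 genes below 1000 bp (0.492%) to 257 of 3617 between 10000 and 30000 bp (7.11%) and 72 of 135 from 300000 bp on (53.3%). A single model was found in 1052 of the 1413 hosts (74.5%), and 361 hosts with 2 or more held 990 models.

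**Figure D4:**
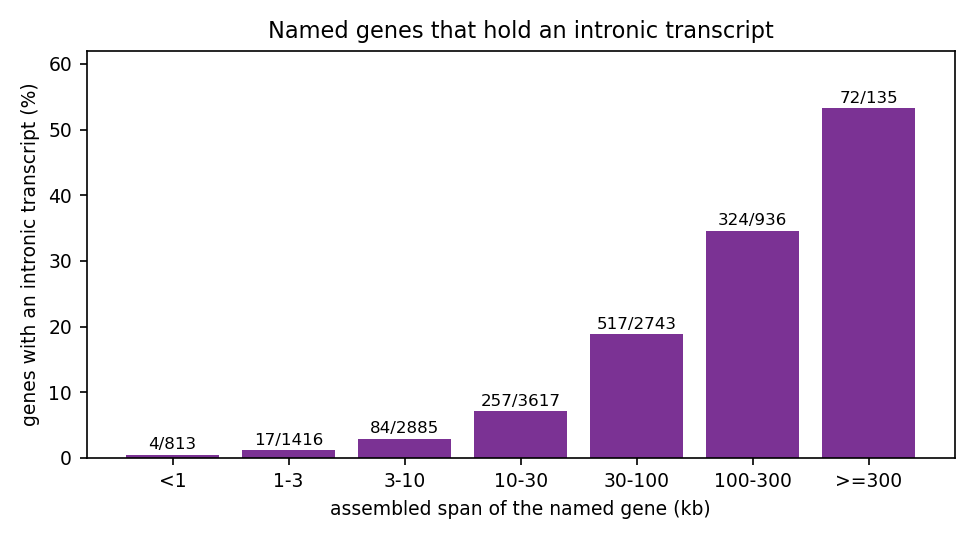
Share of named genes that hold at least 1 intronic model (%, y axis) by the assembled span of the gene (kb, x axis); the numbers above the bars give genes with a model over all genes of the bin. The share goes from 0.492% of the shortest to 53.3% of the longest genes.

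The hosts with the most models were rCG_40795, Foxp1 and Runx1 with 9 each, and hosts with 8 included Ebf1, rCG_57161 and Nedd4l. Among the 9 hosts with 7 was Igf1r, the receptor of insulin-like growth factor 1, named after its values were seen. Its models measured 210 to 527 bp (chromosome 1, 113797931 to 114015727), 3 on its own strand and 4 opposite, with 2 from the first and 5 from the second assembly. Foxp1, a forkhead transcription factor, had 9 single-exon models of 210 to 377 bp, all from the second assembly, 5 on its own strand and 4 opposite. They lay between 266 and 452 kb from the start of its assembled span of 592 kb (chromosome 4, 120420433 to 121012499, minus strand). Runx1, the transcription factor that blood stem cell formation depends on, had 9 models of 236 to 618 bp (chromosome 11, between 31517829 and 31576838), 3 on its own strand and 6 opposite, with 2 from the first and 7 from the second assembly. Of these, 4 shared an intron of 29843 bp and 3 an intron of 19829 bp, and none lay in the first 142 kb of the assembled span.

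Ebf1, the early B-cell factor, had 8 models of 213 to 591 bp on chromosome 10 (28609587 to 28762564), 4 on each strand, with 1 from the first and 7 from the second assembly. All of them lay between 29.6 and 182 kb from the start of its 386 kb span, at 2820 to 106715 bp from the nearest assembled exon. The host rCG_40795 (chromosome 1, 41763366 to 42032345, plus strand) had more models from the first (5) than from the second assembly (4), unlike Foxp1, Runx1 and Ebf1.

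**Figure D5:**
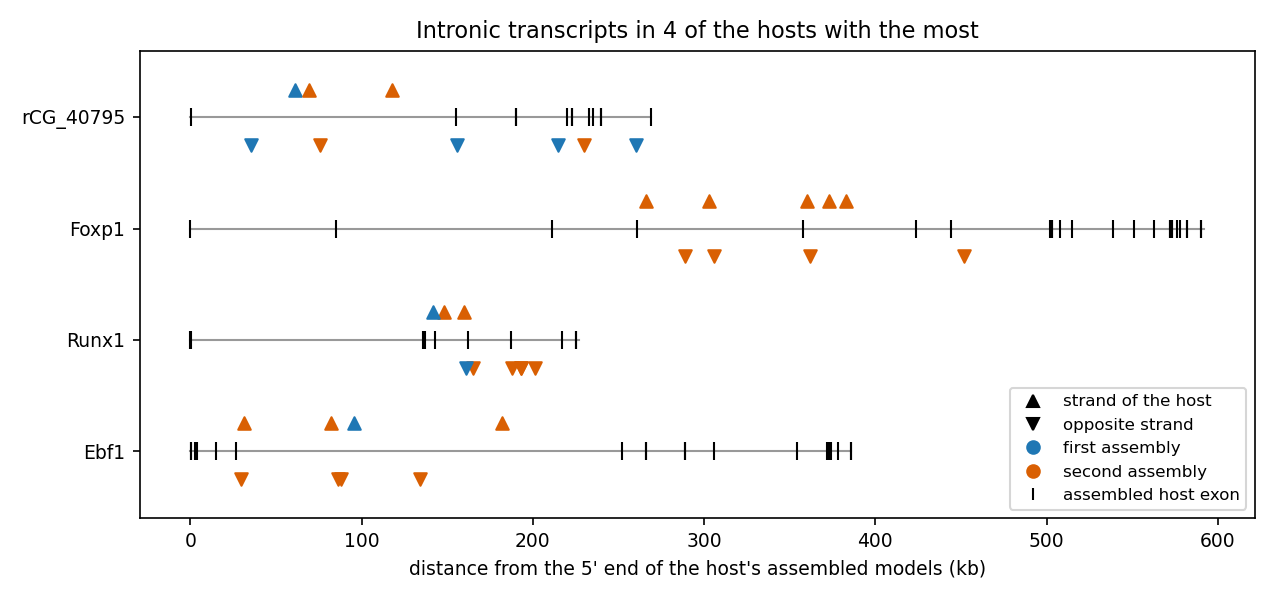
Position of the intronic models (triangles) along 4 of the hosts with the most, as distance (kb, x axis) from the 5′ end of the assembled host models; upward triangles are on the strand of the host, downward ones opposite to it, blue marks the first and orange the second assembly, and ticks mark assembled host exons. All 9 models of Foxp1 come from the second assembly and lie between 266 and 452 kb.

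An enclosing intron was itself assembled for 1035 of the intronic models (50.7%), as part of a model that matches or is contained in a reference transcript. These models occupied 863 of 72063 distinct assembled introns (1.2%), whose median length was 13356 bp against 1165 bp for all. Per length of intron the range was smaller, with 1.43 models per Mb in introns below 1000 bp, 3.36 at 1000 to 3000 bp, 4.7 at 10000 to 30000 bp, 5.18 at 30000 to 100000 bp and 2.67 above. In 120 introns there were 2 or more models, and at most 5 in 1 intron. The shortest intron with a model measured 245 bp and the longest 221798 bp. Where the host had a full reference chain, 194 of 427 models (45.4%) lay in the first intron. First introns made up 20.1% of the introns of such chains by number and 40% by length.

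Along the intron, from its 5′ to its 3′ end, successive stretches of 20% of its length held 212, 245, 260, 190 and 128 models, so that the last 20% had 12.4% of them. For single-exon models the numbers were 138, 142, 139, 87 and 82. The distance to the nearest assembled exon of the host had a median of 3573 bp (quartiles 884 and 12043 bp, n = 1875), and 1366 models (72.9%) were more than 1000 bp away. Within 100 bp of such an exon were 112 models (5.97%), including 59 whose span, gaps included, overlapped an exon of a model of the host gene. The nearest exon was the upstream one for 997 models and the downstream one for 819 (54.9% upstream, Wilson interval 52.6% to 57.2%). This share was 57.5% for single-exon models (611 of 1063) and 51.3% for spliced ones (386 of 753). Models outside the assembled span of their host have an assembled exon on 1 side only. Inside an intron of a full reference chain the upstream share was 61.2% (260 of 425, Wilson interval 56.5% to 65.7%). In all, 72 intronic models (3.53%) shared exon sequence with a model of another class, most often with a new-junction isoform on the same strand (31 models).

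Genes that mark the cells of bone and marrow were hosts in a share close to that over all named genes. Of 125 genes on 10 lists, 87 had assembled models and 10 of these (11.5%, beside 10.2% over all named genes) held 20 intronic models. Models were assembled for 14 of 15 osteoblast and osteocyte genes and 8 of 15 osteoclast genes, beside 87 of 125 over all lists. On the osteoblast and osteocyte list 2 genes were hosts. No gene of the osteoclast, skeletal muscle, adipocyte or endothelial list was one, among 8, 5, 5 and 7 genes with models. Such small numbers cannot set these lists apart from the 10.2% over all named genes. Listed genes were matched by symbol. Of 1413 host names, 547 matched neither a current nor an older symbol, so a listed gene under such a name would be missed. Ebf1, on the B lymphocyte list, held 8 of the 20 models, and the other 9 hosts held 1 to 3 each.

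Runx2, the master transcription factor of osteoblasts, held 1 single-exon model of 276 bp on its own strand (XLOC_009210, chromosome 9, 14054564 to 14054839), in an intron of 57709 bp and 2609 bp before the next exon. Phex, an endopeptidase of osteocytes that controls phosphate balance, held 1 of 295 bp on its own strand (XLOC_016376, chromosome X, 38449319 to 38449613). Acan, the main proteoglycan of cartilage, listed under the older symbol Agc1, held 1 of 312 bp on its own strand (XLOC_000424, chromosome 1, 125104309 to 125104620). Sox6, a transcription factor of chondrocytes, held 2 on its own strand, 1 of 298 bp and 1 with 2 exons, 253 bp and a gap of 155 bp (XLOC_001623 and XLOC_001624, chromosome 1, 167833759 to 167899029). The 5 models in these 4 genes were all on the strand of the host, and 4 of them came from the second assembly. Of the other listed hosts, Smad1, Bmpr2, Itgam and Ank1 held only models opposite to the host, and Ebf1 and Tgfbr2 held both. Over all intronic models, 49.2% of single-exon and 51% of spliced ones were on the strand of the host. The second assembly alone gave 1363 of them, and the first alone 654.

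Among signalling genes of bone, Smad1, an effector of BMP signals, held 1 model of 221 bp (XLOC_015644, chromosome 19, 28026019 to 28026239), and Bmpr2, a BMP receptor, 1 of 285 bp (XLOC_009659, chromosome 9, 58685019 to 58685303). Both were opposite to the host and from the first assembly. Tgfbr2, a receptor of TGF-beta, held 3 models of 212 to 483 bp (chromosome 8, 115067270 to 115095273), 1 on its own strand and 2 opposite, with gaps of 24 and 52 bp in the spliced ones. All 3 lay outside its assembled span of 22147 bp, at 35486 to 63278 bp from its nearest assembled exon. Itgam, an integrin of granulocytes and macrophages, held 1 model of 245 bp with a gap of 30 bp (XLOC_001706, chromosome 1, 180313450 to 180313724), and Ank1, an ankyrin of the red cell membrane, 1 of 439 bp with a gap of 28 bp (XLOC_014089, chromosome 16, 66787153 to 66787619). Both of these were opposite to the host.

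Models with many exons or long exon sequence were few. The most exons, 6 each, were in a model of 327 bp in rCG_59514 (XLOC_007972, chromosome 7, 100177411 to 100197370) and in one of 851 bp in LOC363849 (XLOC_011687, chromosome 11, 80806137 to 80825378). The smallest gap was 2586 bp in the former and 373 bp in the latter, and both models were on the strand of the host. At the same locus in LOC363849, the first assembly held a model of 4 exons and 596 bp (80806215 to 80823251) that also had a largest gap of 14624 bp. Models of 5 exons lay in rCG_56800 (835 bp), rCG_51712 (782 bp) and rCG_26696 (289 bp), again all on the strand of the host. The spans of those in rCG_56800 and rCG_51712 overlapped an exon of a model of the host. The longest exon sequence was a single exon of 3082 bp in rCG_58807 (XLOC_011525, chromosome 11, 30568383 to 30571464, opposite to the host). This exon overlapped an exon of a model of the host. It was followed by 2856 bp in rCG_56800, 1730 bp in rCG_50926, 1691 bp in Fam117a (listed as RGD1561062, with a gap of 28 bp) and 1600 bp in rCG_49445.

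The widest models spanned 35403 to 52833 bp with 217 to 334 bp of exon. Taok3, a stress-responsive kinase listed under the older symbol JIK, held the widest one (XLOC_012272, chromosome 12, 41035458 to 41088290), with 2 exons, 275 bp and a gap of 52558 bp on the strand of the host. The others lay in rCG_20194, Tmcc3, rCG_26434 and Frmd4b, and the 4 widest models with a host strand were all on it. Each of these 5 was found in 1 assembly only. The spans of the models in Taok3 and Frmd4b overlapped an exon of a model of the host.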

How the data were processed

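Femur RNA was sequenced by the authors from OVX and SHAM rats. The submitters' processing notes name FastQC, HISAT2, StringTie, featureCounts and the build rn4, without versions, roles or order, and the deposited annotation has the form that gffcompare writes. The deposited files hold positions and other attributes, with an empty score in every line and no expression values. The sequences bear database names in place of chromosome names. Whether the positions refer to rn4 was not checked, and no positions of the GRCr8 gene table were used. Sequences were assigned to chromosomes by the current symbols of their genes (99.1% of 5337 on the main chromosome). Of 1413 host names, 591 equalled a current symbol and 272 an older one of the same chromosome.

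Models of class i were taken with their exons, and hosts from the attribute that names the reference gene. Host strand, span and exons came from assembled models of classes =, c, j, k, m, n and o. The first and second assembly were inferred from the order of strands in the numbering. Shares were compared with Fisher's exact test and an exact binomial test, with 95% Wilson intervals that cover counting error only. The functions were tested on simulated annotations. Depth is unknown, so precision rests on the number of models. The members and gene lists were chosen with earlier results of these data known. Named are the 5 hosts with the most models, the 5 models each with the most exons, longest exon sequence and widest span, spliced models found in both assemblies, and models in listed genes. Of these, 1 host is not reported here. Python 3.11.15, numpy 2.4.6, scipy 1.17.1 and matplotlib 3.10.9 were used.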

Additional observations from a re-analysis of the deposited data

How the results depend on the processing

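The number of intronic models, 2042, was 845 with 2 or more exons, 25 with both assemblies required, 159 with at least 500 bp of exon, and 517 with 2 or more exons and every gap at least 50 bp, each by the construction of the filter; the last was chosen after seeing the data. The single-exon share of 58.6% turned below that of models between genes with at least 500 bp of exon (47.8%, Fisher's exact p = 0.297) and kept its direction under the other 4 alternatives. The share found in both assemblies was no longer past the threshold at 500 bp in all (5.03%), single-exon (5.26%) and spliced models (4.82%), where few models are left. The strand shares crossed the threshold only with the strand of the named host transcript, added after seeing the data (54.3% and 55%); the cause was not tested. The ratio of the second to the first assembly, 2.08, was 1.29 at 500 bp, 1.23 for spliced and 3.23 for single-exon models, all added after seeing the data. No paired analysis was possible because no value belongs to a sample, and no replicate was left out, with 1 sample per group. OVX was not compared with SHAM. Unknown depth limits every statement on a model missing from an assembly.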
